A study of Mus musculus with 2 samples.

Results

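The genes of the cytoplasmic ribosomal proteins were taken as 1 group in a map of GATA4 binding in mouse liver. The group held the 82 protein-coding genes of GENCODE mouse release 21 whose symbol begins with Rpl or Rps and a number, without the Rps6k kinases and pseudogenes, out of 21938 protein-coding genes in all. Of these, 73 encoded core subunits, 43 of the large and 30 of the small subunit, and 9 were paralogs of a core subunit or, for Rps19bp1, a binding protein. The study used chromatin immunoprecipitation followed by sequencing (ChIP-seq) with an antibody to GATA4 on whole adult mouse liver described as healthy, with no treatment and no genotype given. It held 1 group of 2 samples, biological replicates 1 and 2, and age and sex were not given. The donor and biosample identifiers of the 2 were the same, and no label places them in separate animals, so a difference between the replicates may be technical. Control libraries were not analysed here.

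Ribosomal proteins assemble with ribosomal RNA into the small subunit, which reads the messenger RNA, and the large subunit, which joins amino acids into protein. Each is needed in about equal number, and their genes lie apart on most chromosomes. Their short promoters start transcription within a run of pyrimidines, so that the messenger RNA opens with a terminal oligopyrimidine tract, through which growth signalling controls its translation. Motifs of the SP, ETS and YY1 factors are common near these start sites. GATA4 is a zinc-finger factor that binds the motif WGATAR (W stands for A or T, R for A or G), and in liver it is known from the sinusoidal endothelium, and from hepatocytes.

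The sequences below show the kinds of summit found at these promoters. Each is the 101 bp centred on the summit, the point of highest signal, of the gene's strongest peak, from the GRCm38.p6 (mm10) sequence of RefSeq, printed 5′ to 3′ on the gene's strand. Capitals mark matches on either strand to WGATAR (GATA factors), GGGCGG (SP factors) or MGGAAR, where M is A or C (core of ETS factors). Adjoining or overlapping matches run together. Such a match describes letters and does not show a bound site. The first 3 are from strong peaks with a GATA match at the summit, namely Rpl4 (chr9:64173225-64173325, plus strand), Rpl37 (chr15:5116509-5116609, plus strand) and Rpl19 (chr11:98026413-98026513, plus strand).
Rpl4: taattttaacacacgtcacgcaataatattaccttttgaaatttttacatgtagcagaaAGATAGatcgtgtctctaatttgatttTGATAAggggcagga
Rpl37: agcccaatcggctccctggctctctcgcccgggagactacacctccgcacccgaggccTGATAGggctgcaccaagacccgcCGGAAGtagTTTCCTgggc
Rpl19: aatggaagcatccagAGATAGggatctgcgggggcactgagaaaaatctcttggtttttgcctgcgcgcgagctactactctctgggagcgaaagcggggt
Further kinds carried other motifs and no GATA match. Rps19 (chr7:24884250-24884350, plus strand) and Rps6 (chr4:86857406-86857506, minus strand) held ETS matches. In Rps19, 1 SP match overlapped an ETS match. Rpl31 (chr1:39367706-39367806, plus strand) held SP matches only and was chosen after its values were seen.
Rps19: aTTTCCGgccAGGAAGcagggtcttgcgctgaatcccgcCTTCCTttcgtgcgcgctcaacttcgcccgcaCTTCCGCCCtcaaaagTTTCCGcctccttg
Rps6: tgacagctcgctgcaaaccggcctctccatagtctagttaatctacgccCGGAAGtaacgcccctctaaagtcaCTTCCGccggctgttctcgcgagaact
Rpl31: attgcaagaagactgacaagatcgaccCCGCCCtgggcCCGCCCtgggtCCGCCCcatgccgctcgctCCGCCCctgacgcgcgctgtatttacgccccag
The last pair, Rpl10a (chr17:28328626-28328726, plus strand) and Rps12 (chr10:23787340-23787440, minus strand), held none of the 3 motifs although their peaks were among the stronger ones of these genes.
Rpl10a: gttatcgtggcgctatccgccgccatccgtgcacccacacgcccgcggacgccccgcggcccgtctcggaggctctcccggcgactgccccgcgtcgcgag
Rps12: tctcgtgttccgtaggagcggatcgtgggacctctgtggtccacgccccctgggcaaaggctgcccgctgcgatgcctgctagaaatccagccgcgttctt

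A larger share of ribosomal protein genes than of other genes had a GATA4 summit at the promoter in the combined list and in replicate 2. Replicate 1's own list had a share near the background, which rests on 1 gene and does not show how the replicates compare. In the authors' optimal list, which combines the replicates, 47 of the 82 genes (57.3%, Wilson 95% interval 46.5 to 67.5%) had a summit 1 kb or less from any of their start sites. Over all protein-coding genes the share was 22.4%. Other genes weighted to the same promoter GC content, in bins of 5 percentage points, had a share of 25.1%, which left a gap of 32.2 points. Replicate 2's own list past the reproducibility threshold gave 53 of 82 genes (64.6%), beside 27.6% of all genes and 31.2% at like GC. In replicate 1's own list the count was 1 gene, Rpl4 (1.22%, interval 0.216 to 6.59%), beside 1.51% of all genes and 1.70% at like GC. The shorter conservative list, of 9234 peaks, held 7 of the genes (8.54%), against 4.32% of all genes and 5.05% at like GC. The pooled list of the authors' later run held 43 (52.4%), against 21.9% and 24.8%. Interval bounds cover counting over genes, which are not replicates, and no test between groups was possible with 1 group.

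**Figure D1:**
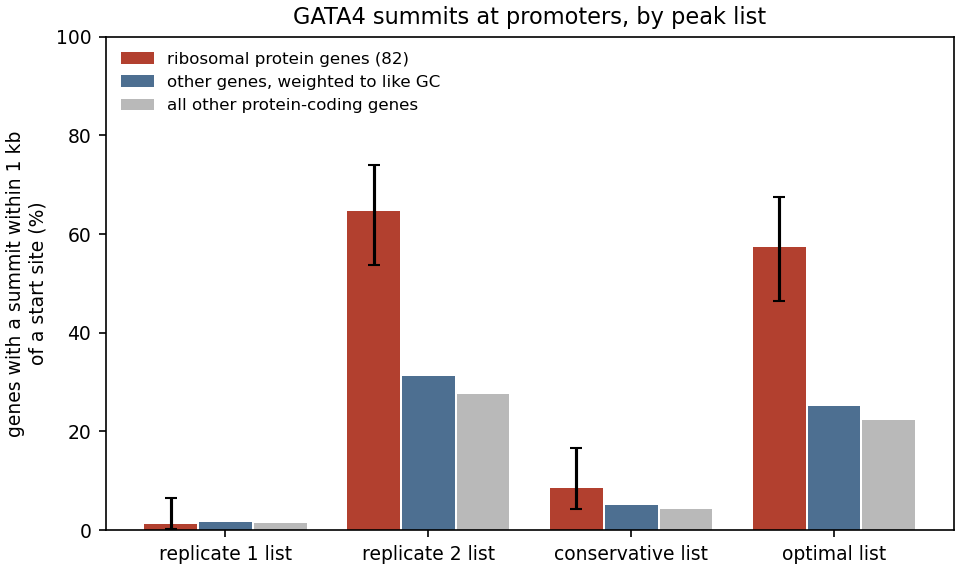
Share of genes (%, vertical axis) with a promoter summit, 1 kb or less from a start site, in 4 peak lists, for the 82 ribosomal protein genes (red, bars with Wilson 95% intervals), for other genes weighted to like GC (blue) and for all other genes (grey). The red bar stands at 57.3% in the optimal list and 64.6% in replicate 2, and at 1.22% in replicate 1.

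The lists differed in length, 4287 peaks in replicate 1 and 26314 in replicate 2, and read depth is unknown. Cut to its 4287 strongest peaks, replicate 2's list held 7 of the 82 genes (8.54%), beside 3.55% of all genes and 4.30% at like GC. These 7 were Rpl10a, Rpl19, Rpl3, Rpl37, Rpl4, Rpl41 and Rpl8, all of the large subunit and the same 7 genes as led the optimal list. Each replicate also had an unthresholded list of 300000 candidate peaks with background. Among candidates of rank 20000 or better, replicate 1 held 10 of the genes (12.2%), beside 4.95% of all genes and 5.37% at like GC. Replicate 2 held 44 by the same limit (53.7%), beside 21.4% and 24.4%. At any rank, replicate 1 listed 28 of the genes (34.1%; 27.8% of all genes) and replicate 2 listed 77 (93.9%; 66.0% of all genes).

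The tissue label was set beside marker genes, counted where a summit lay inside the gene or within 10 kb. Gene lists were chosen with earlier results of these data known, so the counts are no independent check of the label. All 7 hepatocyte markers and all 7 markers of liver sinusoidal endothelium had one, against 1 of 4 markers of cardiac muscle and 47.2% of all protein-coding genes. Peak lists hold no expression, and which liver cell type gave a peak cannot be told from them.

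Among the large subunit's core genes, 26 of 43 (60.5%, interval 45.6 to 73.6%; like GC 24.6%) had a promoter summit in the optimal list. Rpl4, whose protein lines the tunnel through which the new chain leaves, had the strongest, ranked 1887 of 24050 peaks by the authors' signal score, 100 bp upstream of the start site. Its best promoter candidate was ranked 1821 in replicate 1 and 2953 in replicate 2. It was thus near the top of both candidate lists, and was the only member listed past the threshold in both samples. In replicate 1's thresholded list its peak was mid-list, at rank 1942 of 4287 (top 45.3%; like GC 40.9%). No WGATAR lay within 50 bp of that summit. Rpl41, the smallest ribosomal protein, followed in the optimal list at rank 2227, with 1543 in replicate 2 and no promoter candidate in replicate 1. Rpl37 was at rank 2542, with 1648 in replicate 2 and none in replicate 1. These 2 genes led replicate 2 while replicate 1 listed nothing at their promoters.

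Rpl10a, a protein of the mobile L1 stalk, was at optimal rank 3237, with candidates at 8706 in replicate 1 and 2041 in replicate 2. Rpl3, which reaches towards the centre where peptide bonds form, was at 3421, with 1978 in replicate 2 and none in replicate 1. Rpl8, also near that centre, was at 3536, with 13424 and 2956 in replicates 1 and 2. All 3 stood better in replicate 2 than in replicate 1. Rpl19, which forms a bridge to the small subunit, was at rank 3621, with 2938 in replicate 1 and 3784 in replicate 2, and its summit lay 247 bp upstream. Rpl4 and Rpl19 were the 2 members ranked 5000 or better in both candidate lists. Rpl9 was at rank 6551, with 6210 in replicate 2 and none in replicate 1. The other large-subunit genes with a summit lay between rank 6859, at Rpl13, and rank 22277, at Rpl21. In replicate 2's own list the large subunit had 31 of 43 genes (72.1%; like GC 30.4%), and in replicate 1's it had Rpl4.

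The small subunit had 18 of 30 core genes with a promoter summit (60.0%, interval 42.3 to 75.4%; like GC 26.1%). None of these ranked 5000 or better, beside 697 of the 5144 promoter peaks outside the 82 genes. The subunit's strongest was at Rps19, the gene most often mutated in Diamond-Blackfan anaemia, at rank 5789. Its candidates were at 52076 in replicate 1 and 4566 in replicate 2. Rps27 was at 6201, with 282431 in replicate 1 and 6710 in replicate 2, and Rps28 at 8427, with 234878 and 5904. For all 3 the candidate of replicate 1 lay deep in its list. Rps12 was at 8646, with 13893 in replicate 1 and 10057 in replicate 2, a smaller distance between the samples. Rps3, which helps to shape the channel where messenger RNA enters, was at 9604, and Rps3a1 at 11218. Replicate 1 had no promoter candidate at either gene, and replicate 2 ranked them 8874 and 6368. The weakest peak of the subunit was that of Rps18, at rank 22143. Replicate 2's own list held 17 of the 30 (56.7%; like GC 32.6%) and replicate 1's held 0.

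Among the 7 members of the conservative list were Rpl4, Rpl8, Rpl19, Rps12, Rpl38 and Rps6, at ranks 1833, 3303, 3377, 6855, 7923 and 8766 of 9234 peaks. The median of the 7 stood at the top 74.2% of that list, in its weaker part, beside 40.3% for other genes at like GC. Rpl38, needed for the patterning of the axial skeleton, was ranked 17136 in replicate 1 and 14319 in replicate 2. Rps6, the protein phosphorylated by the S6 kinases, was at 10287 in replicate 1 and 18015 in replicate 2. The conservative list of the authors' later run (9.76% of members, 4.78% of all genes) added Rpl35a, a further Diamond-Blackfan gene, at 6228 in replicate 1 and 13012 in replicate 2. Rpl4, Rpl19, Rpl35a, Rpl36 and Rps6 were the 5 members ranked better in replicate 1, out of 28 listed in both candidate lists. Rpl36 was at 12462 in replicate 1 and 12923 in replicate 2.

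**Figure D2:**
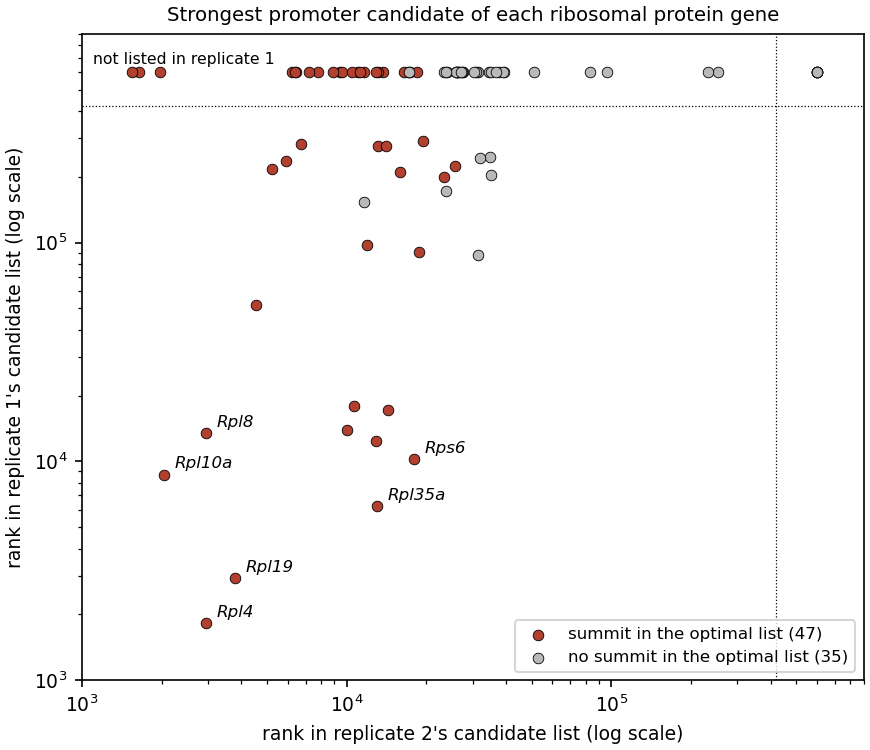
Rank of the strongest promoter candidate of each of the 82 genes in replicate 2 (horizontal, log scale) and in replicate 1 (vertical, log scale), with genes that a replicate did not list beyond the dotted lines, and with red for the 47 genes in the optimal list and grey for the other 35. Rpl4 and Rpl19 sit at the lower left with ranks of 1821 to 3784 in both samples, while most genes lie along the top because only 28 were listed in replicate 1.

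Of the paralogs and Rps19bp1, 3 of 9 had a summit (33.3%, interval 12.1 to 64.6%; like GC 24.3%), with an interval that also holds the share of the core genes. The 3 were Rps27l, a paralog of Rps27 known as a p53 target, at rank 8842, Rps19bp1 at rank 12791, and Rpl22l1, the paralog of Rpl22, at rank 20122. All 3 had no candidate in replicate 1, and replicate 2 ranked them 6437, 11645 and 17408. Rpl36al and Rpl7l1 had summits in replicate 2's thresholded list and in no other one, at ranks 22149 and 22619 there. The other 4 are known from single tissues or as a retrogene copy. Rpl3l, of striated muscle, had its best candidate at rank 253272 in replicate 2, and Rpl10l and Rpl39l, of the testis, and the retrogene Rps27rt had none in either replicate.

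Of the 47 genes with a summit, 42 were also in replicate 2's thresholded list. The other 5, in neither replicate's own list, were Rpl21, Rps2, Rps6, Rps18 and Rps26 (named after their values were seen). A further 11 genes were in replicate 2's list and not in the optimal one. The 35 genes without an optimal summit were mostly listed lower down. In replicate 2, 30 of them had a candidate, with a median rank of 31514 (11665 to 253272), beside 11258 (1543 to 27588) for the 47 with a summit. Replicate 1 listed 6 of the 35, at a median of 188419, and 22 of the 47, at a median of 71132. The optimal list combines the replicates, so better ranks for its genes follow in part from this split and are no separate support. Only 5 genes had no promoter candidate in either replicate, and besides the 3 paralogs these were Rps13 and Rps15a.

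Promoter GC overlapped between members with and without a summit, with medians of 56.8% and 54.7% and ranges of 39.3 to 66.3% and 41.7 to 70.2%. Among the genes of highest GC without a summit were Rpl36al (70.2%), Rpl7a (67.7%), Rpl27a (67.0%), Rps20 (63.0%), Rps29 (61.7%), Rpl13a (61.3%), Rps21 (60.7%), Rpl28 (59.8%) and Rpl12 (59.3%). Of these, Rpl36al, Rpl27a, Rpl13a and Rps21 passed the threshold in replicate 2, at ranks of 21288 to 25429, in the lowest part of its list. None of these genes had a candidate in replicate 1. Genes with a summit had a mean of 2.43 annotated start sites and those without 1.69, and weighting other genes to the same GC and number of start sites gave a gap of 31.4 points.

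Where a member had a promoter peak in the optimal list, its rank there was about that of other promoter peaks. The strongest peak of the 47 genes stood at a median of the top 54.0% of the optimal list (rank 12999, from 1887 to 22277), beside 55.5% for other genes with a promoter summit and 54.4% at like GC. Other lists differed from this. In the conservative list the members stood lower, as given above. In replicate 2's candidate list the 77 members stood higher, at the top 5.75% beside 10.5% at like GC. In replicate 1's candidate list the 28 listed members stood lower, at the top 41.8% beside 35.5% at like GC. In the optimal list 7 of the members' 53 promoter peaks ranked 5000 or better, beside 697 of the 5144 other promoter peaks. Of these 7, 1 overlapped replicate 1's thresholded list (14.3%), beside 237 of 697 other promoter peaks of such rank (34.0%). Over all 53, 3.77% overlapped replicate 1's list, both peaks of Rpl4, and 90.6% replicate 2's, beside 5.70% and 85.5% of other promoter peaks weighted to like rank.

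Summits lay close around the start site. A single summit was found at 41 genes and 2 at each of 6, among them Rpl4 and Rpl8. The 53 summits were a median of 58.0 bp from the nearest start site of the gene, beside 105 bp for the 5144 other promoter peaks, and 37 of them (69.8%) lay within 100 bp, beside 48.8%. Within 250 bp the shares were 98.1% and 72.0%. Summits fell upstream at 28 of 53 (52.8%; others 59.6%), and the whole range ran from 371 bp upstream, at Rpl21, to 230 bp downstream. By annotation the strongest summit was upstream of the gene's annotated span at 21 genes. It was in an untranslated region (UTR) at 18 and in another part of an exon at 1, Rps3. At the other 7 it lay inside the span and outside the annotated exons. These need not be introns, since the summit of Rpl3 was 10 bp upstream of its only start site.

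**Figure D3:**
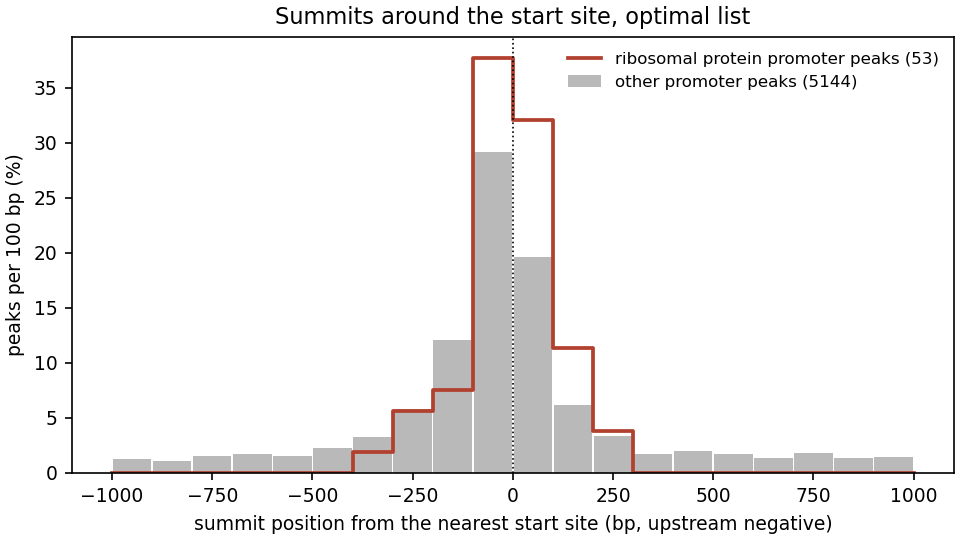
Position of promoter summits from the nearest start site (bp, upstream negative) in bins of 100 bp, as a share of peaks (%), for 53 peaks of ribosomal protein genes (red line) and 5144 other promoter peaks (grey bars). The red line is confined to 371 bp upstream to 230 bp downstream, while the grey bars reach both ends of the axis.

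At 8 of the 47 genes another protein-coding gene began 1 kb or less from the member's own start, and there the peak cannot be assigned to 1 gene of the pair. The pairs were Rpl4 with Zwilch, Rpl9 with Lias, Rpl15 with Nkiras1, Rpl18 with Sphk2, Rpl35a with Iqcg, Rps18 with Vps52, Rps27 with Rab13 and Rps28 with Ndufa7. At Rpl9, Rpl18, Rpl35a and Rps18 the neighbour's start site was the nearer one. Among the 35 genes without a summit 8 had such a neighbour too. Small nucleolar RNA genes lay inside 16 of the 47 and 12 of the 35.

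GATA motifs were sparse at these summits and ETS motifs frequent. Within 50 bp of the summit, WGATAR was found at 9 of 53 peaks (17.0%, interval 9.20 to 29.2%), beside 26.9% of other promoter peaks at like GC and 12.3% of the members' own flanks 500 bp away. MGGAAR was found at 30 of 53 (56.6%, interval 43.3 to 69.0%; like GC 42.2%; flanks 18.9%). The longer ETS motif CCGGAAG, each match of which is also one of MGGAAR, was at 13 (24.5%, interval 14.9 to 37.6%; like GC 10.3%; flanks 1.89%). GGGCGG was at 17 (32.1%, interval 21.1 to 45.5%; like GC 29.8%; flanks 11.3%). The YY1 motif AAGATGGC was at 3 (5.66%; like GC 1.38%). WTATGC, unrelated letters searched for comparison, was at 3 (5.66%; like GC 2.22%). Thus the interval held the like-GC share for GATA and SP motifs, and lay above it for both ETS forms and for the 3 YY1 matches.

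**Figure D4:**
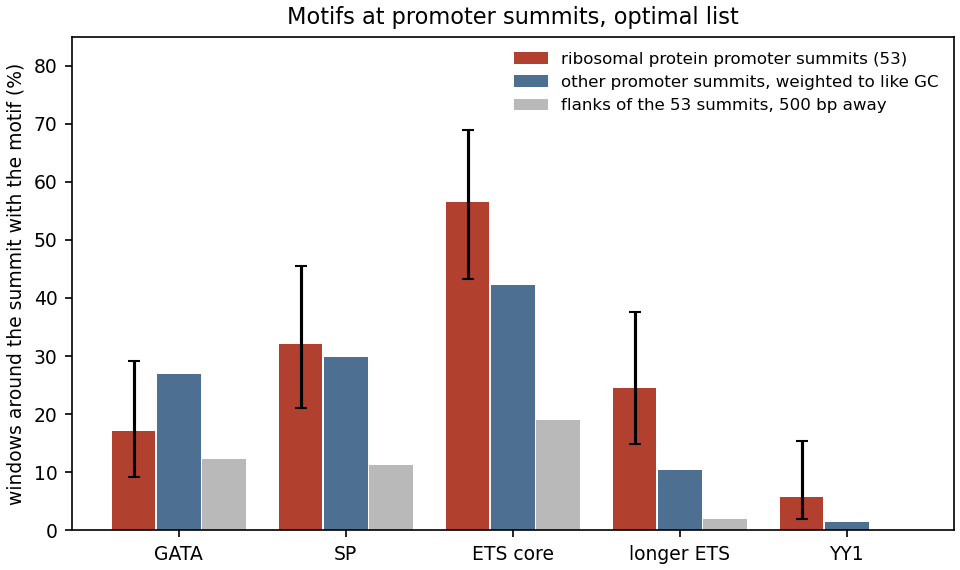
Share of 101 bp windows (%, vertical axis) holding each motif at 53 ribosomal protein promoter summits (red, with Wilson 95% intervals), at other promoter summits weighted to like GC (blue) and in flanks 500 bp from the 53 summits (grey). GATA stands at 17.0% beside 26.9% at like GC, and the longer ETS motif at 24.5% beside 10.3%.

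The members whose strongest summit held WGATAR were Rpl4, with 2 matches as printed above, and Rpl8, Rpl10, Rpl19, Rpl21, Rpl36a, Rpl37, Rpl41 and Rps27. Matches lay mainly among the strongest peaks. Of the 7 peaks ranked 5000 or better, 5 held the motif (71.4%), beside 439 of 697 other promoter peaks of such rank (63.0%). Past rank 5000 it was at 4 of 46 (8.70%), beside 888 of 4447 others, where MGGAAR was at 27 of 46 (58.7%; others 42.0%). At rank 5000 or better MGGAAR was at 3 of 7 (42.9%), beside 43.6% of others, so its larger share was seen past rank 5000 only. The longer ETS motif CCGGAAG had a larger share on both sides of that rank. It was at 3 of 7 (42.9%; others 7.89%) and, past rank 5000, at 10 of 46 (21.7%; others 10.4%). The shares among the strongest peaks rest on 7 peaks. Rpl10a and Rpl3 were the 2 strong peaks without WGATAR.

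The promoter window from 250 bp before to 50 bp after a start site was searched at all 82 genes, whether or not they had a peak. A gene was counted if the window of any of its start sites held the motif. The same motifs stood out. MGGAAR was in 75 promoters (91.5%; all genes 74.1%; like GC 77.1%) and CCGGAAG in 29 (35.4%; all genes 13.5%; like GC 16.1%). GGGCGG was in 53 (64.6%; all genes 51.1%; like GC 55.2%) and AAGATGGC in 12 (14.6%; all genes 4.30%; like GC 4.84%). WGATAR was in 24 (29.3%; all genes 35.0%; like GC 33.3%). The polypyrimidine initiator YYCTTTYY, where Y is C or T, on the sense strand within 10 bp of a start site, was in 21 (25.6%; all genes 2.43%), all of them core subunits.

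Of these motifs in the promoter window, WGATAR was held by near equal shares of genes with a GATA4 summit, 14 of 47 (29.8%), and without, 10 of 35 (28.6%). GGGCGG was also near equal, at 66.0% and 62.9%. ETS motifs and the initiator were counted more often with a summit. MGGAAR was in 46 of 47 against 29 of 35, CCGGAAG in 19 of 47 (40.4%) against 10 of 35 (28.6%), and the initiator in 15 of 47 (31.9%) against 6 of 35 (17.1%). Genes with a summit had more start sites, a mean of 2.43 against 1.69, so more sequence was searched for them. These differences between members were not tested and were not adjusted for the number of start sites.

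Other gene lists, mainly linked to translation, had similar shares of promoter summits in the optimal list, and proteasome subunits a lower one. A list of 21 further genes of terminal oligopyrimidine messenger RNAs held elongation factors, and also genes outside translation such as Vim. Of these 21, 15 had a promoter summit in the optimal list (71.4%; like GC 29.2%). The 6 ribosomal protein genes with other symbols, such as Rpsa and Rplp0, had 3. Ribosome biogenesis genes had 12 of 20 (60.0%; like GC 25.8%), and mitochondrial ribosomal protein genes, which are not known as oligopyrimidine genes, 43 of 78 (55.1%; like GC 25.5%). Proteasome subunits had 11 of 40 (27.5%; like GC 26.1%), though in replicate 2's own list they had 21 (52.5%; like GC 32.4%). In that list the oligopyrimidine genes stood at 66.7% (like GC 36.1%), biogenesis genes at 60.0% (like GC 32.0%) and mitochondrial ribosomal protein genes at 69.2% (like GC 31.5%). The 6 ribosomal protein genes with other symbols had 5 there (83.3%; like GC 39.8%). In replicate 1's list these groups held 1 of the 20 biogenesis genes, 1 of the 78 mitochondrial ones (1.28%) and none of the others. All genes stood at 1.51%, and counts this small cannot tell a share from the background. The share of the cytoplasmic ribosomal protein genes thus lay within the range of these groups, and differences between groups were not tested.

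**Figure D5:**
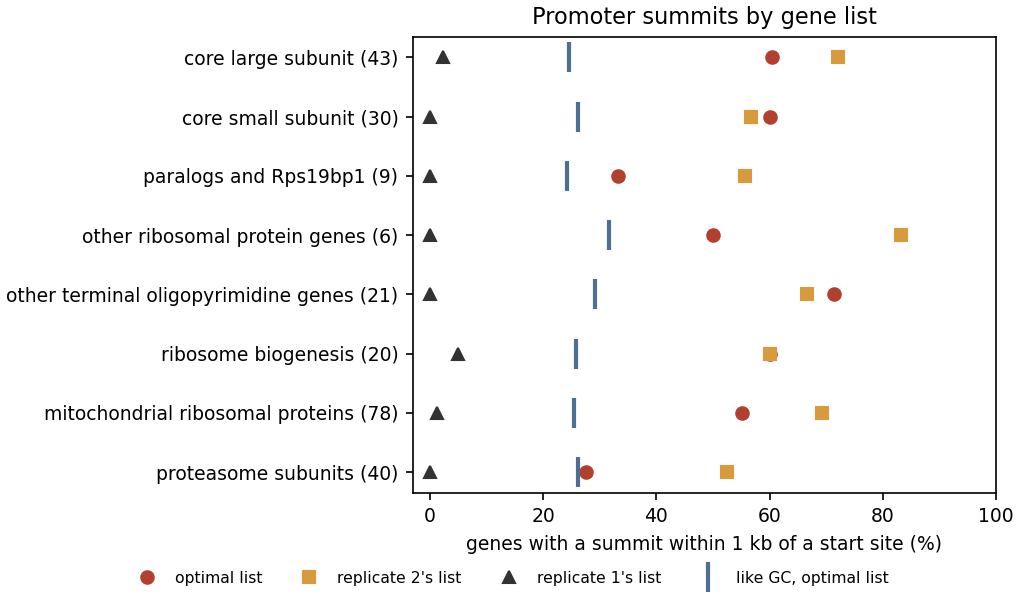
Share of genes (%, horizontal axis) with a promoter summit in 8 gene lists, number of genes in brackets, in the optimal list (red circles), replicate 2's list (orange squares) and replicate 1's list (black triangles), with the optimal share of other genes at like GC as a blue bar. Core subunits stand at 60.5 and 60.0% in the optimal list and proteasome subunits at 27.5%, the circle and square of ribosome biogenesis coincide at 60.0%, and each black triangle stands for 1 gene or none.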

How the data were processed

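Peak lists from ChIP-seq of 2 liver samples were used. Per the README tables, the authors' earlier run gave the optimal, conservative and candidate lists on mm10, and a later run the thresholded lists of each replicate and of pooled reads and a second conservative list. Their aligner and peak caller were not given in the sources used here. Deposited with each peak is a signal score of the authors' caller, which has no unit and ranked peaks within 1 list only. The deposited score for the irreproducible discovery rate (IDR) is capped at 1000, and thresholded lists reach down to 537 (earlier run) or 540 (later run). Read depth is unknown. Peaks outside chromosomes 1 to 19, X and Y, 33 of 24083 in the optimal list, were left out.

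A gene was counted where a summit lay within 1 kb of any of its start sites, of 41492 in all. GC was taken over the 300 bp promoter window, and other genes were weighted to the members' bins of 5 points with at least 20 genes each. Motifs were searched on both strands, and like GC for summits used the sequence beside the window. Python 3.11.15 with numpy 2.4.6, pandas 2.3.3, scipy 1.17.1 and matplotlib 3.10.9 was used. On simulated data with 21938 genes, a gap made with 20 points was recovered at 19.49 points.

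Members, gene lists and motifs were chosen with earlier results of these data known. Named genes were those in replicate 1's thresholded or a conservative list, the 8 strongest of each subunit, all paralogs and the 10 of highest GC without a summit. A few results under the naming rule are not reported here. Alternatives were other lists, an IDR of 0.01, other distances, start sites, GC measures, motifs and windows. Replicate 2's list at the length of replicate 1's, the candidate rank limit of 20000 and the comparisons by rank were added after seeing the data.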

Additional observations from a re-analysis of the deposited data

How the results depend on the processing

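The count of 47 genes and the gap of 32.2 points at like GC stayed at 43 to 53 genes under 7 alternatives and at 27.6 to 35.1 points under 11, among them the later run's pooled list, other distances and start sites, core subunits alone and other GC measures. The conservative list gave 7 genes and a gap of 3.48 points, and the later conservative list 8 and 4.16. An IDR of 0.01 gave 29 genes and 19.5 points, and replicate 2's list at the length of replicate 1's, an added setting, 7 genes and 4.23 points. These lists hold fewer peaks. With single replicates' lists, the count ranged from 1 to 53. The gap ranged from -0.484 points in replicate 1 (without replicate 2) to 33.4 in replicate 2. The reversed sign in replicate 1 rests on 1 gene. The interval of its share, 0.216 to 6.59%, holds the like-GC share of 1.70%. WGATAR at summits was 29.8% in the promoter window, 37.5% in the conservative list and 7.55% as AGATAA, each below its like-GC share of 38.7, 58.8 and 12.9%, and 0 to 12.3% across single replicates. GGGCGG was 49.1% within 100 bp and 66.0% in the promoter window (like GC 43.7 and 66.0%), and 0 to 32.3% across replicates. MGGAAR was 81.1% within 100 bp, 97.9% in the window and 24.5% as CCGGAAG, each above its like-GC share of 63.4, 82.6 and 10.3%, and 0 to 55.4% across replicates. The values of 0 come from 1 peak, that of Rpl4 in replicate 1. The median rank was 45.3 to 47.6% across single replicates, of which the 45.3% is that same peak of Rpl4 alone (like GC 40.9%). No paired analysis was possible because there was 1 group. Depth is unknown, so a summit missing from a list was not detectable there and is not shown to be absent.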

Other observations

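Rps14, a small subunit gene known from the 5q deletion syndrome, stood apart among the members without an optimal summit. Replicate 2 ranked its promoter candidate 11665, the best of the 30 such genes it listed, and replicate 1 ranked it 152886. The authors' later pooled list held it at rank 14818. Replicate 2's thresholded list held it at rank 10854, as 1 of 11 members there without an optimal summit. The protein-coding gene Ndst1 began 1 kb or less from a start site of Rps14. The peak thus cannot be assigned to 1 gene of this pair. Rpl5 and Rpl11, which with 5S ribosomal RNA bind Mdm2, both lacked an optimal summit, with candidates in replicate 2 at ranks 231492 and 23717. These genes were named after their values were seen.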
